A study of Mus musculus with 30 samples.

Results

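ISG15 is a small ubiquitin-like protein that cells attach to other proteins after they sense type I interferon (IFN-I). The genes of this conjugation system were followed through bulk RNA-seq of whole mouse melanomas that secrete different IFNα subtypes. The members were chosen by name, as the modifier Isg15, its activating enzyme Uba7, its conjugating enzyme Ube2l6, its ligase Herc6 and its deconjugase Usp18. Of these 5 genes, 4 had counts among the 39676 genes listed, and Isg15 was not analysed here. The tumors were 30 in all, 10 each of B16-GFP, B16-IFNA4 and B16-IFNA9, harvested on day 8. They grew from B16-F10 melanoma cells placed under the skin of C57BL/6 mice. The study's methods give female mice, typically used at 8 to 12 weeks of age. All tumor cells carried retroviral GFP, herpes simplex virus glycoprotein B with a cyan fluorescent protein, and firefly luciferase with puromycin resistance. The groups differed in the GFP vector, which was empty in B16-GFP and held murine IFNα4 in B16-IFNA4 or IFNα9 in B16-IFNA9. The transduced cells were selected by sorting for their fluorescence, and the retroviral vector, not a native promoter, drove the IFNα. B16-GFP tumors served as the control throughout.

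Conjugation of ISG15 runs through a cascade like that of ubiquitin. Uba7 activates the C terminus of ISG15 at the cost of ATP, Ube2l6 takes over the activated protein, and a HECT-type ligase, in mice chiefly Herc6, passes it to lysines of target proteins. Usp18 cuts ISG15 off again and, independently of its protease activity, binds the receptor subunit IFNAR2 and restrains IFN-I signaling. All of these genes are known as interferon-stimulated genes (ISGs), induced through the transcription factor complex ISGF3.

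Total counts per tumor ran from 14598517 to 19788383. Levels are given in CPM (counts scaled to a common library total) after scaling of the libraries by TMM, a method that makes the bulk of genes comparable between libraries, and are not corrected for gene length unless stated. The transgenes matched the labels: Ifna4 had 81 to 188 counts in each B16-IFNA4 tumor and Ifna9 had 55 to 148 in each B16-IFNA9 tumor, and both had 0 counts in all other tumors. The melanocyte markers Tyr, Tyrp1 and Mitf, the 3 of 7 listed that had counts, were present in every tumor, with a summed level of 7220 to 22900 CPM in B16-GFP, 2160 to 3640 CPM in B16-IFNA4 and 3370 to 8930 CPM in B16-IFNA9 tumors. B16-GFP tumor 7 stood apart. It had the lowest TMM factor (0.768), the highest melanocyte sum (13100 CPM in the next tumor) and the lowest leukocyte sum (278 CPM, and 438 CPM in the next tumor). Labels number the tumors from 1 to 10 within each type, and no label says which were processed together.

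In B16-IFNA4 and B16-IFNA9 tumors alike, the 4 measured members were higher than in B16-GFP tumors, and for each of them every tumor of the secreting type lay above every B16-GFP tumor. Usp18 rose most with IFNα4, 13.2-fold, whereas Ube2l6 rose least with both subtypes, 4.11-fold and 3.76-fold. With IFNα9 Herc6 rose 8.40-fold and Usp18 7.90-fold, and the ratio of these 2 within a tumor did not differ past the threshold from that in B16-GFP tumors (adjusted p = 0.842, permutation test). All 4 were called higher at an adjusted p under 0.05 (quasi-likelihood test of edgeR, adjusted by the Benjamini-Hochberg method over 15926 genes), as were 31.3% of all genes tested with IFNα4 and 26.9% with IFNα9. With IFNα9, 4281 genes were called higher and 4595 lower, against 5052 and 3608 where the libraries were scaled by their totals in place of TMM. Groups that did not overlap, with the secreting type higher, were found for 8.5% and 4.44% of genes. The median log2 fold change of the 4 members was 2.79 with IFNα4 and 2.74 with IFNα9, against 0.009 and −0.003 over all genes tested. RNA came from whole tumors, so a change in the number of expressing cells and a change in the RNA per cell cannot be told apart.

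**Figure D1:**
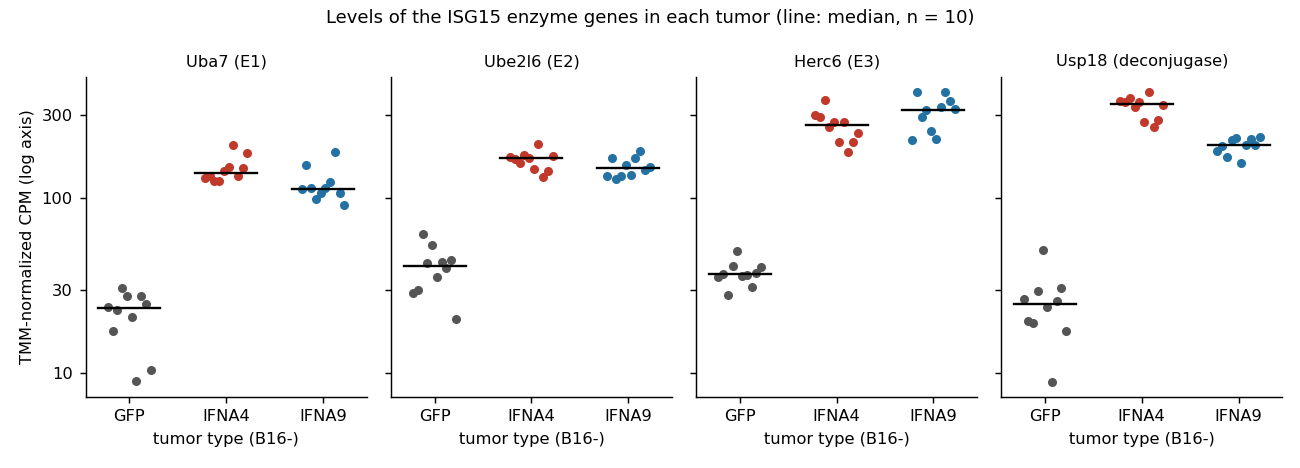
TMM-normalized CPM (log axis) of the 4 measured members in each of 30 tumors, with 1 point per tumor and a line at the median of 10 tumors. All B16-IFNA4 and B16-IFNA9 points lie above all B16-GFP points for each gene, and for Usp18 the B16-IFNA9 points, at 159 to 225 CPM, lie below the B16-IFNA4 points, at 255 to 403 CPM.

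Uba7 (ENSMUSG00000032596.14, protein coding, chromosome 9 from 107975505 to 107984060 of GRCm38, plus strand) encodes the activating enzyme that commits ISG15 to the pathway. Its lowest, median and highest level was 8.93, 23.4 and 30.6 CPM in B16-GFP, 125, 139 and 200 CPM in B16-IFNA4, and 91.6, 113 and 185 CPM in B16-IFNA9 tumors. The mean was 21.5 ± 7.28 CPM (SD, n = 10), 147 ± 24.9 CPM and 121 ± 28.1 CPM in this order. The gap between types was wide: the lowest secreting tumor exceeded the highest B16-GFP tumor 4.1-fold with IFNα4 and 3-fold with IFNα9. The log2 fold change against B16-GFP tumors was 2.77 with IFNα4 (standard error, SE, of 0.18, adjusted p = 4.14e-14, edgeR) and 2.49 with IFNα9 (SE 0.17, adjusted p = 1.1e-12, edgeR). B16-GFP tumors 7 and 10 were low for Uba7, at 8.93 and 10.4 CPM, and without tumor 7 the log2 fold changes were 2.70 and 2.40. Part of the Uba7 locus is shared, since 1003 of its bases overlap Gm20661 on the same strand and 2.52% of its 50-base stretches also occur there, and their reads may have been divided between the genes. Gm20661 itself had 1.05 to 3.24 CPM in B16-GFP, 4.64 to 15.7 CPM in B16-IFNA4 and 4.47 to 10.9 CPM in B16-IFNA9 tumors.

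Ube2l6 (ENSMUSG00000027078.14, protein coding, chromosome 2 from 84798828 to 84810335, plus strand) encodes the E2 that carries ISG15 from the activating enzyme to the ligase. Its lowest, median and highest level was 20.2, 41.1 and 62.7 CPM in B16-GFP tumors. In B16-IFNA4 tumors these values were 132, 169 and 203 CPM, and in B16-IFNA9 tumors 128, 148 and 185 CPM, so that both secreting types covered nearly one range above all controls. The mean rose from 40.1 ± 12.4 CPM (SD, n = 10) to 164 ± 20.1 CPM and 151 ± 18.9 CPM. Its log2 fold change was 2.04 with IFNα4 (SE 0.14, adjusted p = 1.21e-13, edgeR) and 1.91 with IFNα9 (SE 0.14, adjusted p = 1.23e-12, edgeR). B16-GFP tumor 7 was not low for this gene, at 43.0 CPM. Of the 50-base stretches of Ube2l6, 2.545% also occur in 4 other genes, which the counting could have treated either way.

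Herc6 (ENSMUSG00000029798.11, protein coding, chromosome 6 from 57581000 to 57664632, plus strand) encodes the ligase that fixes ISG15 to its targets. Among B16-GFP tumors it was the steadiest member, with a coefficient of variation of 15.9% against 31.1% to 43.4% for the others. Its lowest, median and highest level was 27.8, 36.6 and 49.8 CPM in B16-GFP, 183, 264 and 362 CPM in B16-IFNA4, and 215, 321 and 407 CPM in B16-IFNA9 tumors. The means were 37.1 ± 5.92 CPM (SD, n = 10), 260 ± 52.5 CPM and 312 ± 70 CPM. Herc6 was thus the only one of the 4 whose mean was higher with IFNα9 than with IFNα4. The log2 fold change against B16-GFP tumors was 2.81 with IFNα4 (SE 0.13, adjusted p = 1.77e-16, edgeR) and 3.07 with IFNα9 (SE 0.14, adjusted p = 5.21e-17, edgeR), which placed Herc6 270th and 101st among 15926 genes ordered by fold change. Of its 50-base stretches, 12.5% also occur in other genes, which the counting could have treated either way. Gm45193, which overlaps Herc6 on the same strand, had 0 counts in every tumor.

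Usp18 (ENSMUSG00000030107.10, protein coding, chromosome 6 from 121245906 to 121270917, plus strand) encodes the deconjugase. It varied most among B16-GFP tumors, where its lowest, median and highest level was 8.84, 24.8 and 50.4 CPM, with the minimum in tumor 7 (17.4 CPM in the next tumor) and the maximum in tumor 5 (30.8 CPM in the next tumor). In B16-IFNA4 tumors these values were 255, 348 and 403 CPM, and in B16-IFNA9 tumors 159, 201 and 225 CPM. The 3 types therefore formed 3 separate ranges, with B16-IFNA9 between the others. The means were 25.2 ± 10.9 CPM (SD, n = 10), 333 ± 48.8 CPM and 200 ± 21.6 CPM. The log2 fold change was 3.72 with IFNα4 (SE 0.18, adjusted p = 2.61e-16, edgeR), the 88th largest of all genes tested, and 2.98 with IFNα9 (SE 0.18, adjusted p = 5.06e-14, edgeR), the 117th largest. Without B16-GFP tumor 7 they were 3.64 and 2.89. None of the 50-base stretches of Usp18 occurs in another gene.

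Between the IFN-I–secreting tumors, Usp18 was lower with IFNα9 than with IFNα4 and was the only member called. Its log2 fold change, B16-IFNA9 minus B16-IFNA4, was −0.74 (SE 0.17, adjusted p = 0.00212, edgeR), a level 0.600 times that with IFNα4, and all 10 B16-IFNA9 tumors lay below all 10 B16-IFNA4 tumors. Of all genes tested, 7.25% were called lower with IFNα9 and 10.5% higher, and 0.741% were lower without overlap. These were 1154 genes lower and 1679 higher, against 916 and 2030 with library totals and 1986 and 2346 with only the 2 types in the fit. Herc6 differed by 0.27 in the opposite direction (95% interval 0.02 to 0.51, adjusted p = 0.145, edgeR), and 2 B16-IFNA9 tumors exceeded every B16-IFNA4 tumor. Uba7 differed by −0.29 (95% interval −0.61 to 0.04, adjusted p = 0.243, edgeR), although 8 of the 10 B16-IFNA9 tumors lay below every B16-IFNA4 tumor. Ube2l6 differed by −0.13 (95% interval −0.38 to 0.13, adjusted p = 0.552, edgeR). For these 3 genes the difference was not past the threshold, and the intervals leave changes of up to 0.61 on the log2 scale within their bounds.

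**Figure D2:**
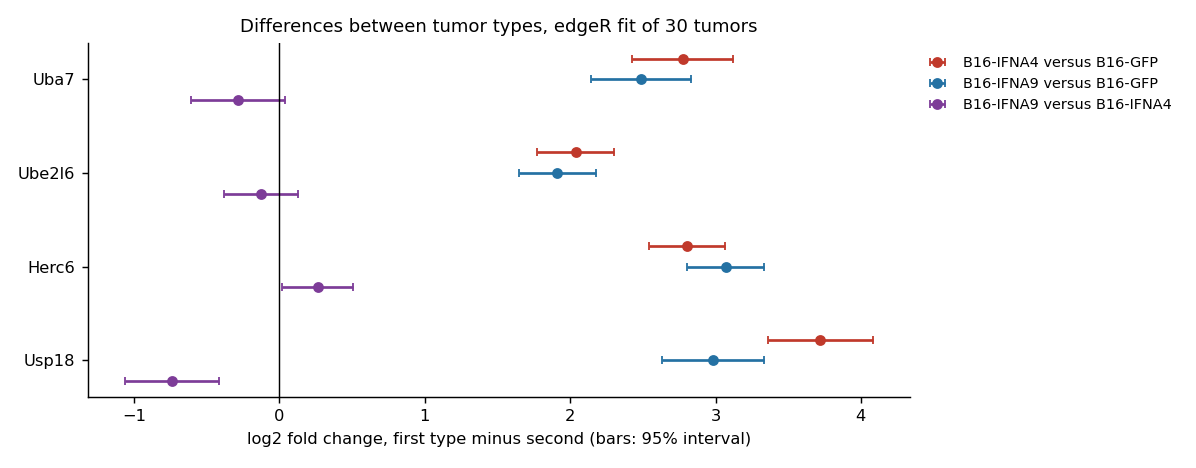
Log2 fold changes of the 4 members in the 3 comparisons, as points with 95% intervals from the edgeR fit of all 30 tumors. The differences from B16-GFP lie between 1.91 and 3.72, and of the differences between the secreting types that of Usp18, at −0.74, is the one farthest from 0.

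The members did not rise in step, and this was tested within each tumor, where a ratio of 2 genes does not depend on the scaling of the libraries. The 6 pairs of members were compared in 3 comparisons, which gave 18 two-sided permutation tests with 100000 resamples, adjusted together by the Benjamini-Hochberg method. Ratios are of CPM without length correction, so only their differences between types are compared.

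The ligase rose less than the deconjugase with IFNα4. The ratio of Herc6 to Usp18 had a geometric mean of 1.58 in B16-GFP, 0.774 in B16-IFNA4 and 1.53 in B16-IFNA9 tumors (n = 10 each). Single tumors ran from 0.989 to 4.06, from 0.681 to 0.962 and from 1.1 to 2.05 in the same order, so that B16-IFNA4 tumors lay below all others. The highest B16-GFP ratio was that of tumor 7, and without it the highest was 2.31. The log2 ratio was lower by 1.03 in B16-IFNA4 than in B16-GFP tumors (difference −1.033, adjusted p = 9e-05, permutation test). Between the secreting types it was higher by 0.99 with IFNα9 (adjusted p = 7.2e-05, permutation test, from p = 1e-05, the smallest that these resamples can give). Between B16-IFNA9 and B16-GFP tumors it differed by −0.05 (adjusted p = 0.842, permutation test), and this difference was 0.10 without B16-GFP tumor 7, 0.01 without B16-GFP tumor 10 and 0.01 without B16-IFNA9 tumor 5.

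The ratio of Ube2l6 to Usp18 separated all 3 types. Its geometric mean was 1.65 in B16-GFP, 0.496 in B16-IFNA4 and 0.754 in B16-IFNA9 tumors, with single tumors at 1.08 to 4.81 (3.23 without B16-GFP tumor 7), 0.424 to 0.544 and 0.629 to 0.857. The log2 differences were −1.73 with IFNα4 and −1.13 with IFNα9 against B16-GFP tumors, and 0.60 between B16-IFNA9 and B16-IFNA4 tumors (adjusted p = 7.2e-05 for each, permutation tests). The conjugating enzyme thus rose less than the deconjugase with both subtypes, and the difference was larger with IFNα4.

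Uba7 also rose less than Usp18, with differences in the log2 ratio of −0.97 with IFNα4 (adjusted p = 7.2e-05, permutation test) and −0.54 with IFNα9 (adjusted p = 0.00583, permutation test). Between the secreting types the ratio of Uba7 to Usp18 was higher by 0.43 with IFNα9 (adjusted p = 0.00989, permutation test), with overlapping tumors. Among the conjugating enzymes, Uba7 rose more than Ube2l6 with both subtypes, by 0.76 (adjusted p = 0.000337, permutation test) and 0.59 (adjusted p = 0.00302, permutation test). Herc6 rose more than Ube2l6, by 0.70 with IFNα4 (difference of Ube2l6 to Herc6 −0.699, adjusted p = 0.00234, permutation test) and by 1.08 with IFNα9 (difference −1.083, adjusted p = 0.000103, permutation test). Between the secreting types, Herc6 was higher with IFNα9 relative to both enzymes that precede it. The log2 ratio of Uba7 to Herc6 differed by −0.56 and that of Ube2l6 to Herc6 by −0.38 (adjusted p = 0.00586 for each, permutation tests). Past the threshold were 14 of the 18 tests. The others were Uba7 to Herc6 with IFNα4, at 0.06 (adjusted p = 0.842, permutation test), which turned to −0.07 without B16-GFP tumor 7 and −0.06 without tumor 10, the same pair with IFNα9, at −0.50 (adjusted p = 0.0552, permutation test), Herc6 to Usp18 with IFNα9, and Uba7 to Ube2l6 between the secreting types, at −0.17 (adjusted p = 0.103, permutation test). The call of Uba7 to Herc6 with IFNα9 turned on single tumors, with −0.62 and adjusted p = 0.00901 without B16-GFP tumor 7, −0.62 and adjusted p = 0.0117 without B16-GFP tumor 10, and −0.54 with 0.0423 and 0.0425 without B16-IFNA9 tumors 1 and 6 (permutation tests). Likewise Uba7 to Ube2l6 between the secreting types passed, at −0.21, without B16-IFNA4 tumor 4 (adjusted p = 0.0494, permutation test) or B16-IFNA9 tumor 8 (adjusted p = 0.0477, permutation test).

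**Figure D3:**
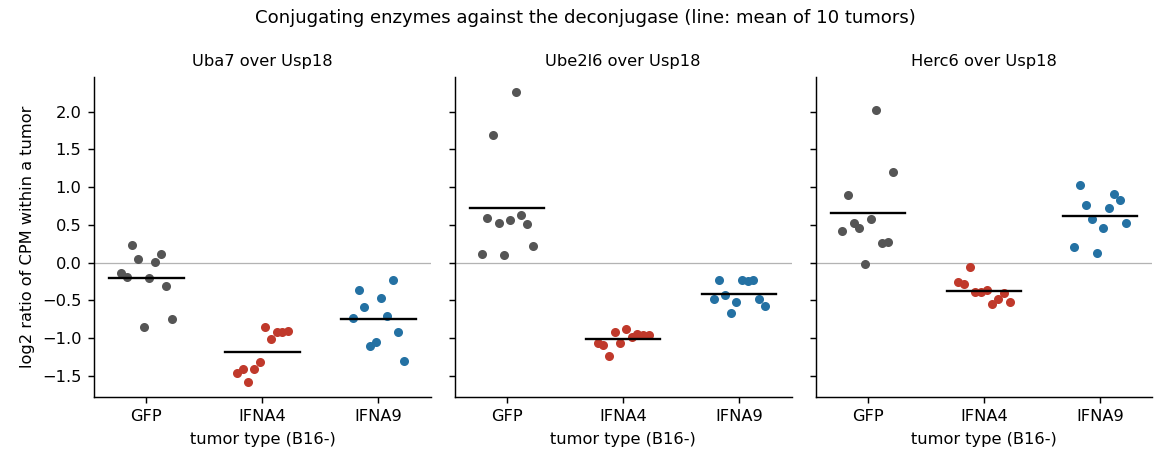
Log2 ratio of the CPM of Uba7, Ube2l6 and Herc6 to that of Usp18 within each tumor, with 1 point per tumor and a line at the mean of 10 tumors. For Ube2l6 the 3 types do not overlap, and for Herc6 the B16-IFNA4 tumors, at −0.55 to −0.06, lie below all B16-IFNA9 tumors, at 0.13 to 1.04.

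Levels per kilobase of the principal transcript allow the members to be ordered within a type. In B16-GFP tumors Ube2l6 stood at 25.7 ± 7.98 CPM per kb (SD, n = 10) and Usp18 at 14.2 ± 6.18, above Herc6 at 7.79 ± 1.24 and Uba7 at 6.73 ± 2.28, where the last pair lay within each other's spread. In B16-IFNA4 tumors Usp18 came first with 188 ± 27.5 CPM per kb, followed by Ube2l6 with 105 ± 12.9, Herc6 with 54.4 ± 11 and Uba7 with 46.1 ± 7.78, where the gap between Herc6 and Uba7 was smaller than the SD of Herc6 but larger than that of Uba7. In B16-IFNA9 tumors Usp18 (113 ± 12.2 CPM per kb) and Ube2l6 (96.6 ± 12.1) were closer, then came Herc6 (65.4 ± 14.7) and Uba7 (37.8 ± 8.79). On this length Usp18 was second in the controls and first in both secreting types. Per kilobase of all annotated exons, the order was the same in B16-GFP and B16-IFNA4 tumors, but in B16-IFNA9 tumors Ube2l6 (75.5 CPM per kb) stood above Usp18 (71.5), so their order there depends on the length used. On the same scale ubiquitin was far more abundant: Ubb stood at 793 ± 277, 663 ± 137 and 722 ± 153 CPM per kb in B16-GFP, B16-IFNA4 and B16-IFNA9 tumors. The activating enzyme of ubiquitin, Uba1, stood at 120 ± 20.1, 95.1 ± 4.75 and 108 ± 8.41 CPM per kb, and thus at a higher level than Uba7 in each type.

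Markers of leukocytes and of T and NK cells rose along with the members, whereas markers of other cells fell or moved less uniformly. Over all genes tested, 31.3% were called higher and 34.1% lower with IFNα4, and 26.9% and 28.9% with IFNα9. All 6 leukocyte markers (Ptprc, Itgb2, Lcp1, Laptm5, Cd53 and Coro1a) were higher in both secreting types than in B16-GFP tumors, with a summed level of 278 to 904 CPM in B16-GFP, 1260 to 2710 CPM in B16-IFNA4 and 886 to 1800 CPM in B16-IFNA9 tumors. All 7 T and NK cell markers were higher with IFNα4 and 6 of 7 with IFNα9, with sums of 3.13 to 60.4, 69.1 to 167 and 48.3 to 112 CPM, and Cd8a was at 0 in 1 B16-GFP tumor. The marker not called was Cd4, at 0.66 (adjusted p = 0.244, edgeR). Without B16-GFP tumor 8, which had the highest sum (22.8 CPM in the next tumor), Cd4 was called at 1.98 (adjusted p = 9.35e-07, edgeR), as it was with the DESeq2 test and the replicate block. The 3 melanocyte markers fell with both subtypes. The other lists moved less uniformly: of 6 macrophage markers 1 was higher and 2 lower with IFNα4 (all 6 were called without B16-GFP tumor 7, and 5 without B16-IFNA4 tumor 1) and 1 was higher with IFNα9 (none without B16-GFP tumor 2, 5, 6, 7 or 10 or B16-IFNA9 tumor 2, 3, 6, 7 or 8). Their sums were 431 to 1940, 884 to 1530 and 908 to 1740 CPM. Of 4 fibroblast markers 1 was higher with each subtype, with IFNα4 0 without B16-IFNA4 tumor 9 and 2 without B16-GFP tumor 3, and with IFNα9 0 without B16-IFNA9 tumor 4 and 2 without B16-GFP tumor 3, 4 or 9 or B16-IFNA9 tumor 5 (sums of 2800 to 12700, 6970 to 12500 and 7010 to 11700 CPM). Of 5 endothelial markers 1 was higher and 3 lower with IFNα4 and 3 were lower with IFNα9 (162 to 409, 231 to 334 and 121 to 210 CPM). Of 5 skeletal muscle markers none was called with IFNα4 and 3 were lower with IFNα9 (2980 to 15100, 3560 to 12800 and 1420 to 11000 CPM). With IFNα9, 5 were lower without B16-GFP tumor 7 or B16-IFNA9 tumor 5. Without B16-GFP tumor 3, which had the highest muscle sum, 2 were, and Ckm was not called (adjusted p = 0.0975, edgeR). Of 4 keratinocyte markers 3 were higher with IFNα4 and 1 with IFNα9, or 2 without B16-GFP tumor 5 or B16-IFNA9 tumor 10 (805 to 6360, 5740 to 8970 and 1730 to 7510 CPM). B16-GFP tumor 7 set the lowest B16-GFP sum of several lists, and without it the lowest was 9.78 CPM for T and NK cells, 779 CPM for macrophages, 5610 CPM for fibroblasts, 211 CPM for endothelium and 3140 CPM for keratinocytes. Without B16-IFNA9 tumor 10 the lowest keratinocyte sum of its type was 4570 CPM, and without B16-IFNA9 tumor 5 the highest muscle sum was 4170 CPM. When the secreting types were compared, 2 of 3 melanocyte markers (Tyrp1 and Mitf) and 1 of 6 macrophage markers (Mrc1) were higher with IFNα9 than with IFNα4. Lower with IFNα9 were 1 of 6 leukocyte markers (Cd53), 1 of 7 T and NK cell markers (Klrb1c), 3 of 5 endothelial markers (Pecam1, Cdh5 and Kdr) and 4 of 5 muscle markers (Acta1, Myh4, Mylpf and Tnnt3), and no fibroblast or keratinocyte marker was called here by edgeR or under any of 37 alternatives, DESeq2 included. Mitf was not called without B16-IFNA4 tumor 1, 6, 8, 9 or 10 or B16-IFNA9 tumor 10. A second leukocyte marker, Coro1a, was called without B16-GFP tumor 3 or 10, B16-IFNA4 tumor 3 or B16-IFNA9 tumor 8, and both Coro1a and Ptprc without B16-GFP tumor 7. A second macrophage marker, C1qa, was called without B16-IFNA4 tumor 1, and a second T and NK cell marker, Cd4, without B16-GFP tumor 8. The part of these cells in the levels of the members was not tested.

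Within a type, the members were therefore related to Ptprc, which encodes the pan-leukocyte antigen CD45, and to each other, over 10 tumors at a time. Pearson's r and Spearman's rho were taken on log2 CPM, each with a two-sided permutation test of 100000 resamples adjusted over 30 relations, and 5 relations passed the threshold by r. In B16-IFNA4 tumors Herc6 followed Ptprc (r = 0.81, adjusted p = 0.0303; rho = 0.84, adjusted p = 0.0389, permutation tests), with r = 0.72 without the 2 tumors farthest from the median of Ptprc. In the same tumors Herc6 and Usp18 varied together (r = 0.88, adjusted p = 0.01; rho = 0.89, adjusted p = 0.022, permutation tests), with r = 0.86 without the 2 farthest. Ube2l6 and Usp18 also did so by r (0.88, adjusted p = 0.01) but not by rho (0.61, adjusted p = 0.254, permutation tests), with r = 0.76 without the 2 farthest.

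In B16-GFP tumors, Uba7 and Usp18 were related (r = 0.84, adjusted p = 0.01; rho = 0.88, adjusted p = 0.022, permutation tests), as were Usp18 and Ptprc by r (0.83, adjusted p = 0.0303) but not by rho (0.64, adjusted p = 0.254, permutation tests). Without tumor 7 neither passed the threshold. Uba7 and Usp18 then had r = 0.69 (adjusted p = 0.192, permutation test), while rho stayed at 0.83 (unadjusted p = 0.00849, adjusted p = 0.0849, permutation test), and Usp18 and Ptprc had r = 0.56 (adjusted p = 0.279, permutation test) and rho = 0.50 (adjusted p = 0.395, permutation test). No relation in B16-IFNA9 tumors passed the threshold. Whether relations differ between types was not tested.

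**Figure D4:**
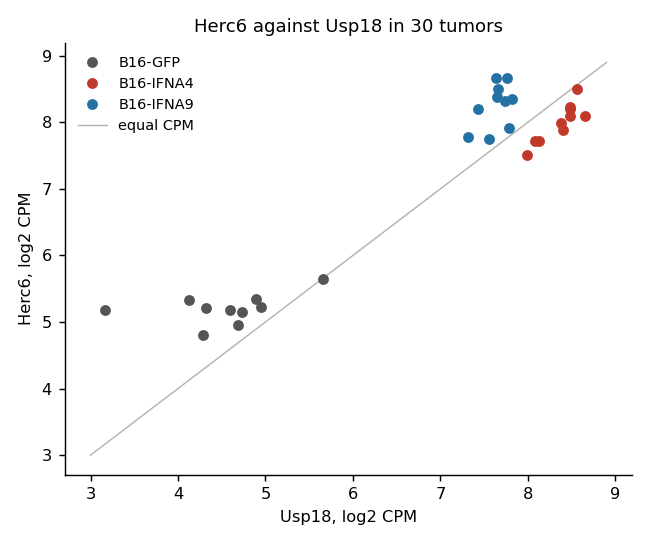
Log2 CPM of Herc6 against log2 CPM of Usp18 in 30 tumors, with 1 point per tumor colored by type and a line of equal CPM. B16-IFNA4 points lie below the line and B16-IFNA9 points above it, and the 10 B16-IFNA4 tumors rise together (r = 0.88).

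The closest relatives of the enzymes, which serve ubiquitin, had smaller fold changes. Of 6 tested, 2 were higher and 2 lower with IFNα4, and 3 were higher and 1 lower with IFNα9, against a background of 31.3% higher and 34.1% lower, and 26.9% and 28.9%, of all genes. Ube2l3, the nearest relative of Ube2l6, fell by 0.50 on the log2 scale with IFNα4 (adjusted p = 9.41e-06, edgeR) and by 0.42 with IFNα9 (adjusted p = 0.000149, edgeR). Uba1 fell by 0.34 with IFNα4 (adjusted p = 0.000243, edgeR) and was at −0.15 with IFNα9 (adjusted p = 0.0774, edgeR). Herc3, a small HERC protein like Herc6, rose by 0.69 (adjusted p = 1.4e-07, edgeR) and 0.34 (adjusted p = 0.00207, edgeR), and Herc2, a giant HERC ligase, by 0.39 (adjusted p = 3.88e-06, edgeR) and 0.33 (adjusted p = 7.35e-05, edgeR). Between the secreting types Herc3 was lower by 0.35 with IFNα9 (log2 fold change −0.347, adjusted p = 0.00682, edgeR), the 1 call of 6, to which a second was added without B16-GFP tumor 1 or 7 or B16-IFNA9 tumor 4, 5 or 6. The median log2 fold change of these relatives was 0.15 with IFNα4 and 0.23 with IFNα9.

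Ubiquitin and the other ubiquitin-like modifiers mostly fell. Of 13 tested, 9 were lower and 1 higher with IFNα4, against 34.1% and 31.3% of all genes. With IFNα9, 10 were lower and 1 higher, against 28.9% and 26.9%. The medians were −0.34 and −0.36. The 1 that rose was Ubd, the modifier FAT10, at 2.97 (adjusted p = 2.96e-06, edgeR) and 2.48 (adjusted p = 5.7e-05, edgeR), from a mean of 0.752 CPM per kb in B16-GFP to 6.01 and 4.28 CPM per kb. Rps27a, a ubiquitin fusion with a ribosomal protein, fell most with both subtypes, at −0.81 and −0.70. Sumo3, a member of the SUMO family, fell by 0.45 and 0.56 on the log2 scale, and both genes were called with both subtypes. Ubb, a polyubiquitin gene, was at −0.26 with IFNα4 (adjusted p = 0.17, edgeR) and was not called in any comparison. Between the secreting types 1 of 13 was called, Map1lc3b, the autophagy protein LC3B, at −0.37 (adjusted p = 0.0147, edgeR). Under 1 of 7 other settings Gabarap and Sumo2 were called there too, which made 3.

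Of 9 activating enzymes for these other modifiers, 5 were lower with IFNα4, against 34.1% of all genes. With IFNα9, 2 were lower and 1 higher, against 28.9% and 26.9%. Sae1, a subunit of the SUMO-activating enzyme, had the largest fall, at −1.01 (adjusted p = 1.01e-09, edgeR) and −0.72 (adjusted p = 1.06e-06, edgeR), and its partner Uba2 was at −0.43 and −0.24, both called, the second not with library totals (adjusted p = 0.0877, edgeR). Uba6, which activates both ubiquitin and FAT10, was higher with IFNα9 by 0.33 (adjusted p = 0.00745, edgeR) and at 0.18 with IFNα4 (adjusted p = 0.127, edgeR). Medians were −0.20 and −0.08. These counts moved with the analysis, from 3 to 5 in both comparisons with B16-GFP tumors, and from 0 to 4 between the secreting types, where Sae1 was called at 0.29 (adjusted p = 0.043, edgeR). None was called there without B16-IFNA4 tumor 1, 2, 5, 6, 7, 9 or 10 or B16-IFNA9 tumor 7 or 10, and 2 to 4 were without B16-GFP tumor 1, 2, 7 or 10, B16-IFNA4 tumor 3 or B16-IFNA9 tumor 4, 5, 6 or 8. Without B16-GFP tumor 7, B16-IFNA4 tumor 9 or B16-IFNA4 tumor 10, 3 were called with IFNα4, and without B16-GFP tumor 1, 5 were called with IFNα9.

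Among 9 accessory genes of ISG15, 3 were higher and 3 lower with IFNα4, near the 31.3% and 34.1% of all genes. With IFNα9, 3 were higher and 2 lower, near the 26.9% and 28.9% of all genes. Trim25, which can act as an ISG15 ligase, rose by 1.65 (adjusted p = 3.57e-12, edgeR) and 0.96 (adjusted p = 3e-07, edgeR), and was lower with IFNα9 than with IFNα4, at −0.69 (adjusted p = 0.000217, edgeR). Itgal and Itgb2 encode the integrin LFA-1, described as a receptor for extracellular ISG15 and carried by leukocytes. Itgal rose by 2.77 and 2.31 and Itgb2 by 1.38 and 1.26, and Itgb2 is also among the leukocyte markers above. Skp2, an F-box protein reported to control Usp18 turnover, was lower, at −1.17 (adjusted p = 3.86e-09, edgeR) and −0.64 (adjusted p = 9.05e-05, edgeR), and higher with IFNα9 than with IFNα4 by 0.53 (adjusted p = 0.00347, edgeR). Of the deubiquitinases that can bind ISG15, Usp5 was at −0.56 and −0.41, both called, Usp14 at −0.43 (adjusted p = 0.000335, edgeR) and −0.19 (adjusted p = 0.0995, edgeR), and Usp21 at −0.06 and 0.08, neither called. Arih1 and Ube2e1 were not called in any comparison.

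Of 17 genes that encode described ISG15 targets, 9 were higher and 5 lower with IFNα4, against 31.3% and 34.1% of all genes. With IFNα9, 9 of the 17 were higher and 3 lower, against 26.9% and 28.9%. The largest rises were those of antiviral effectors, Mx1 at 4.25 (adjusted p = 1.01e-15, edgeR) and 3.03 (adjusted p = 1.32e-12, edgeR) and Ifit1 at 3.81 (adjusted p = 3.18e-16, edgeR) and 3.05 (adjusted p = 5.71e-14, edgeR). The RNA sensors Ifih1 (2.80 and 2.32) and Ddx58 (2.49 and 2.16) also rose. The largest falls were those of Pcna, the DNA polymerase clamp, at −1.13 (adjusted p = 4.79e-08, edgeR) and −0.78 (adjusted p = 2.48e-05, edgeR), and Tsg101, an endosomal sorting protein, at −0.34 and −0.19. The call of Tsg101 with IFNα9 was lost under 6 of 7 other settings and when any of 14 tumors was left out, namely B16-GFP tumors 1, 2, 7, 9 and 10 and B16-IFNA9 tumors 1 to 9. With library totals, 9 of these genes were higher and 2 lower with IFNα4, and 10 were higher and 1 lower with IFNα9. Medians were 0.23 in both comparisons. Between the secreting types 4 were lower and 1 higher with IFNα9, and 4 to 9 were called over the alternatives, with 3 lower and 3 higher with library totals. Mx1 (−1.22) and Ifit1 (−0.76, adjusted p = 0.00213, edgeR) were among those lower, and Plcg1, a phospholipase, was the 1 higher (0.24, adjusted p = 0.00319, edgeR).

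A list of 7 genes held those of the receptor, its kinases and ISGF3, and the inhibitor Socs3. Of these, 5 were higher with IFNα4 and none lower, against 31.3% and 34.1% of all genes. With IFNα9, 5 were higher and 1, Socs3, lower, against 26.9% and 28.9%. Irf9, the DNA-binding subunit of ISGF3, rose by 1.71 and 1.43 on the log2 scale, whereas the receptor gene Ifnar1 was at 0.12 and −0.03, neither called. Socs3, which restrains cytokine signaling, was lower with IFNα9, at −0.43 against B16-GFP (adjusted p = 0.038, edgeR) and −0.56 against B16-IFNA4 (adjusted p = 0.0245, edgeR), the 1 call of 7 between the secreting types, which was lost without B16-IFNA4 tumor 6 or B16-IFNA9 tumor 10 and joined by a second without B16-GFP tumor 7. The call of Socs3 against B16-GFP was lost under 3 of 7 other settings, with an adjusted p of 0.117 with library totals (edgeR), and when any of 12 tumors was left out, namely B16-GFP tumors 2, 3, 4, 5, 8 and 9 and B16-IFNA9 tumors 2, 4, 5, 7, 9 and 10. Medians were 0.60 and 0.47 against B16-GFP tumors.

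**Figure D5:**
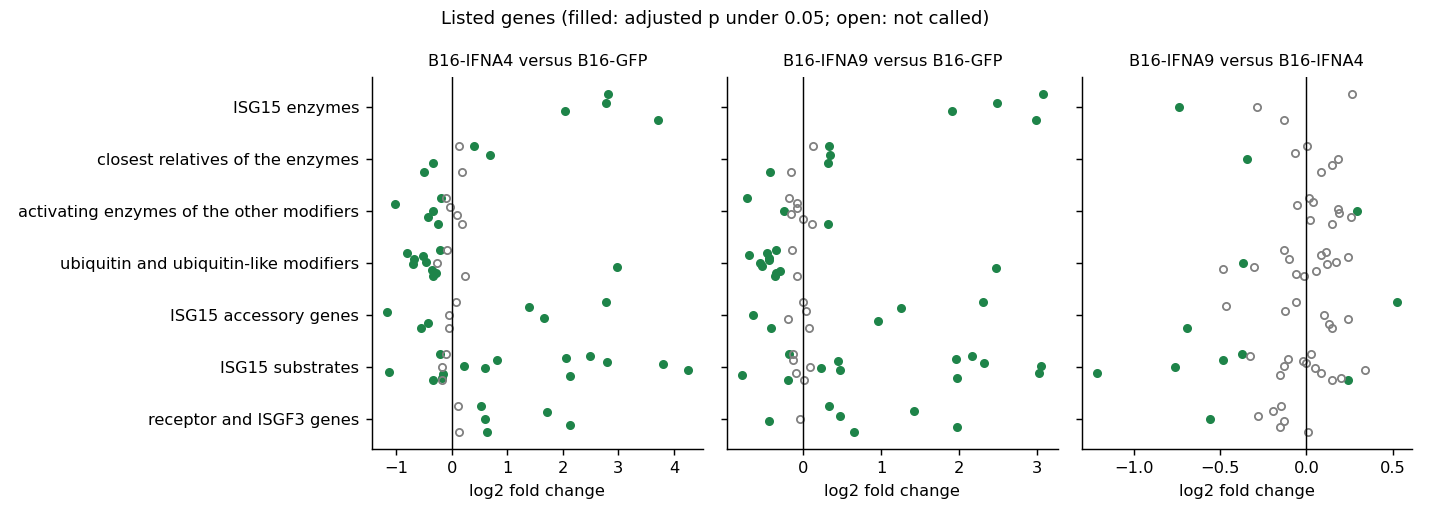
Log2 fold changes of the tested genes of each list in the 3 comparisons, with filled points for genes called at an adjusted p under 0.05 (edgeR) and open points for the others. The 4 ISG15 enzymes lie between 1.91 and 3.72 against B16-GFP, while the closest relatives lie between −0.50 and 0.69.

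To find genes with a like pattern, each gene's log2 CPM was centred on its own mean over the 30 tumors, and the root mean square difference from the mean profile of the 4 members was taken for 15920 genes. The nearest genes were Rnf213 (0.183), which encodes a giant ubiquitin ligase, Xaf1 (0.213), Samd9l (0.248), Ifih1 (0.25) and Phf11c (0.253). Members lay at 0.236 to 0.437 from the mean profile that they make up and 0.48 to 0.822 from each other, with Ube2l6 and Usp18 farthest apart. The gene nearest to Usp18 was Ifit1 (0.137), nearer than any other member was to it, and the gene nearest to Herc6 was the immunity-related GTPase Irgm1 (0.265). For Uba7 it was Dhx58 (0.243), a regulator of RNA sensing, and for Ube2l6 Ifi35 (0.202). Irgm1 shared the order of Herc6, with a lowest, median and highest level of 58.8, 91.5 and 157 CPM in B16-GFP, 398, 589 and 661 CPM in B16-IFNA4 and 474, 702 and 1040 CPM in B16-IFNA9 tumors. Ifit1 shared the order of Usp18, with 13.8, 36.6 and 82.1 CPM, 417, 579 and 693 CPM, and 260, 333 and 387 CPM. These distances are a description, since all points share the same 30 libraries.

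The members rose together, so the DNA before their start sites was read from RefSeq (GRCm38.p6) where it had an entry, which was the case for Uba7, Ube2l6 and Herc6. The 250 bases before each start were searched on both strands for TTCNNTTTC, a loose form of the interferon-stimulated response element that ISGF3 binds. It was not found in the 3 windows, which says only that these letters are not in them, and 7.13% of all 32851 promoters hold it. The motif GAAA, the short core within sites for interferon regulatory factors, was looked for on either strand after the values were seen. It occurred 5 times in the window of Uba7, 6 times in that of Herc6 and 0 times in that of Ube2l6. Of all promoters, 86.4% hold it at least once, 16.8% at least 5 times and 8.75% at least 6 times. The GENCODE and RefSeq starts are the same for Ube2l6 but differ for Herc6 (57581000 and 57580992) and Uba7 (107975505 and 107975567). The 100 bases before the earlier of the 2 starts are shown for the members, all on the plus strand, with GAAA on either strand in capitals. For Uba7 this leaves out the 62 searched bases nearest to the RefSeq start, which GENCODE places within the gene and which hold 3 of its 5 GAAA cores.
Uba7, chr9:107975405-107975504: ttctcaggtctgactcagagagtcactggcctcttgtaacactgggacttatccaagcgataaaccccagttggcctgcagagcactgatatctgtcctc
Ube2l6, chr2:84798728-84798827: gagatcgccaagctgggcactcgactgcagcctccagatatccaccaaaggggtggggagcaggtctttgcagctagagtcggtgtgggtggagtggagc
Herc6, chr6:57580892-57580991: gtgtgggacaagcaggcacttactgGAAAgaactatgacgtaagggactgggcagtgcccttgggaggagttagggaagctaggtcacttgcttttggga

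Of the 9 genes with the nearest patterns, 8 had an entry and 3 held TTCNNTTTC in the same window. Ifit1 had 3 matches on the plus strand, between 109 and 76 bases before its start, and Irgm1 had 2 on the opposite strand to its own, between 30 and 16 bases before its start. They are shown, because these genes follow Usp18 and Herc6 most closely, 5′ to 3′ on the strand of the gene with the matches in capitals.
Ifit1, chr19:34640768-34640825, plus strand: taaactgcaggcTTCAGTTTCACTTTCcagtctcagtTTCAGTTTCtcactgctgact
Irgm1, chr11:48871424-48871462, minus strand: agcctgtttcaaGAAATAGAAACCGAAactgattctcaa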

How the data were processed

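RNA of 30 whole tumors was made into stranded mRNA libraries and read on one end for 50 bases. The authors checked the reads with FastQC 0.11.3, aligned them with HISAT2 2.0.4 and counted them per gene with summarizeOverlaps, and deposited raw counts without normalization. The methods name mm11 and the labels mm10, and the annotation release, overlap mode, strand setting and treatment of reads with several alignments are not given in the sources used here. Reads of overlapping genes could therefore be lost or assigned to either. Symbols and coordinates come from GENCODE M21 (GRCm38), which held 39495 of the 39676 identifiers, 36719 with an identical version.

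Genes were kept where the mean count reached 10, and these 15926 were scaled by TMM and tested with edgeR 4.0.16 (R 4.3.3) by quasi-likelihood in one fit of all 30 tumors, with a biological coefficient of variation of 0.281. Genes were called at an adjusted p under 0.05 (Benjamini-Hochberg). Log2 CPM took an added count of 2, and permutation tests used Python 3.11.15 with scipy 1.17.1. The fit and the permutation tests were tested on simulated data. Counts of 99 to 7340 per tumor stood behind the members. Tumor pairs within a type differed by at least 14.1 in chi-square per gene, so no library was a repeat of another. Whether samples shared a tumor cannot be told from this, and each was treated as 1 replicate. The labels do not say that tumors came from separate mice, so the p-values measure the spread between these samples. The replicate numbers did not pair tumors.

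The members and all lists were chosen with earlier results of these data known. Isg15 was not analysed here, which left 18 of 30 planned ratio tests and 12 of 27 planned relations. The 18 relations between the other members were added afterwards. Of 116 listed genes, 16 had no counts and were not analysed here. Genes were named by rule: the members, the largest called rises and falls of each list (up to 2 each way), counted exceptions, the 5 genes nearest to the mean profile of the members, the nearest to each, and the transgenes. Further genes of the lists were chosen after their values were seen. Some genes that the rule names, and 1 of the motifs searched, are not reported here.

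Alternatives were DESeq2 1.42.0 as a test and as size factors, library totals, edgeR's filterByExpr, no filter, only the types compared, the replicate number as a block, an added count of 0.5 for ratios, and leaving out each tumor.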

Additional observations from a re-analysis of the deposited data

Results flagged for a closer look

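One value lay far from the others of its group of 10 tumors, where its distance from the next tumor, divided by the range of all 10, passed Dixon's critical value of 0.466. It was the log2 ratio of Ube2l6 to Herc6 in B16-IFNA4 tumor 3, at −1.18 against −0.81 in the nearest and −0.43 in the farthest tumor of its type, which divides to 0.5. Tumor 3 had the highest Herc6 level of its type, 362 CPM. In 30 groups of values searched, chance gives about 1.5 such values, 1 in 20.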

How the results depend on the processing

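No call of a member changed under 7 other settings or when any of the 30 tumors was left out, with Usp18 between the secreting types at −0.77 to −0.68 over the tumors left out, and an adjusted p of 2.52e-06 to 0.00626 (edgeR and DESeq2). The replicate numbers did not pair the tumors, as correlations of same-numbered tumors ran from −0.267 to 0.302, with a median of −0.0543. Closest to their own number in both other types at once were 0 tumors, and closeness in a single type was not counted. With the replicate number as a block 4, 4 and 1 members were called, and 10249, 8626 and 2535 genes in all against 10412, 8876 and 2833. With only the 2 types in the fit, 4332 genes were called between the secreting types; the cause was not tested. Library totals moved the median log2 fold change of all genes by 0.101 with IFNα9 and by 0.078 with IFNα4, and relative to that shift the members lay at 1.92 to 3.06 and 2.05 to 3.69. Leaving out B16-GFP tumor 7 left 3 relations past the threshold instead of 5. Over the tumors left out, the difference in the log2 ratio of Uba7 to Herc6 with IFNα4 ran from −0.067 to 0.14 and that of Herc6 to Usp18 with IFNα9 from −0.12 to 0.10, so neither kept its sign. Weak relations changed sign too. With library totals, r was 0.15 for Ube2l6 and Ptprc in B16-GFP, −0.01 for the same pair in B16-IFNA9, and 0.37 for Herc6 and Uba7 in B16-GFP tumors. Without the 2 farthest tumors, r was 0.12 for Usp18 and Ptprc in B16-IFNA9, −0.46 for Ube2l6 and Uba7 and −0.56 for Usp18 and Uba7 in B16-IFNA4, 0.27 and −0.27 for Herc6 and Uba7 in B16-GFP and B16-IFNA9, 0.58 for Herc6 and Ube2l6 in B16-GFP, and −0.05 and −0.01 for Usp18 and Herc6 in B16-GFP and B16-IFNA9 tumors. Ube2l6 and Ptprc in B16-GFP tumors had r = 0.08 without tumor 7. None of these relations passed the threshold. Counts limited no member, and genes that share sequence depend on the counting.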
